A study of Homo sapiens with 16 samples.

Results

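E2F transcription factors and pocket proteins were followed through an estradiol (E2) time course in 2 human cancer cell lines. The group comprised the activator genes E2F1, E2F2 and E2F3, the repressor genes E2F4 and E2F5, the atypical repressor genes E2F7 and E2F8, and the pocket protein genes RB1, RBL1 and RBL2. The 10 genes were taken by name, and all 10 had a row in both count tables, out of 26364 genes. Ishikawa is an estrogen receptor-positive line from an endometrial adenocarcinoma, and T-47D is an estrogen receptor-positive line from a breast carcinoma. Cells of each line received 10 nM E2 for 0, 2, 4 or 8 h. By the written methods the 0-h cells received vehicle and no E2, and they are called untreated below. RNA was sequenced from 2 replicate libraries per line and time point, giving 16 poly(A)-selected libraries. All groups, the 0-h cells included, had first been kept in phenol-red-free medium with charcoal-stripped serum, for 3 days by the sample labels and for longer by the written methods. Each tissue is represented by a single line, so line and tissue cannot be told apart.

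E2F factors control genes that cells need to enter S phase and copy their DNA. In resting cells RB1 and its relatives RBL1 and RBL2 hold E2F factors at these promoters and keep the genes low, and cyclin-dependent kinases with D-type and E-type cyclins phosphorylate the pocket proteins and release the factors. Estradiol is a known mitogen for estrogen receptor-positive breast cancer cells, in which it promotes the passage from G1 into S phase.

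Libraries held between 41177912 and 64148903 counts, and all 10 genes passed the filter on low counts in every comparison. Levels are given as CPM, counts scaled to library size with trimmed-mean (TMM) factors over all 16 libraries. The lines matched their labels: the 6 luminal breast markers summed to between 4077 and 4129 CPM in T-47D cells at 0 h and to between 50.9 and 51.6 CPM in Ishikawa cells, whereas the 6 endometrial markers summed to between 1.68 and 2.38 CPM and between 764 and 818 CPM. GATA3, which defines luminal breast cells, was at 1212 CPM in T-47D and 0.0426 CPM in Ishikawa cells, and PAX8, which marks Müllerian epithelium, was at 0.0478 and 295 CPM. The 6 markers of stroma, immune cells and endothelium summed to between 253 and 276 CPM in Ishikawa cells at 0 h and to between 164 and 186 CPM at 8 h, and to between 88.1 and 94.6 CPM and between 72.9 and 80.3 CPM in T-47D cells. COL1A1 made up most of these sums, the immune and endothelial markers PTPRC, CD3E and PECAM1 were each below 0.1 CPM on average at 0 h and 8 h in both lines, and the part of this fall in the values below was not tested. In Ishikawa cells the 4-h and 8-h libraries were close to each other, with 2 genes called between them by edgeR and 554 at an unadjusted p under 0.05, against 533 and 2533 in T-47D cells. In bulk RNA, fewer cells in a cycle phase and less RNA per cell cannot be told apart.

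The promoters were compared with the letters that E2F factors and the estrogen receptor are known to bind. The windows are reference sequence, the same for both lines, so they cannot bear on the difference between the lines. RefSeq promoter windows (GRCh38.p14, 250 bases before the start site to 50 bases after it) were taken for 8 of the 10 genes. Only the first window listed for a gene was read. That of RB1 belongs to a start site 172699 bases inside the gene and was not used. E2F8 had no entry, and E2F5 was not searched. An E2F motif (TTTCCCGC, TTTCGCGC, TTTGCCGC or TTTGGCGC on either strand) was found in 4 of the 7 windows used, against 3.31% of 35116 promoters of the same length. No window held the estrogen response element, searched as GGTCA and TGACC with 3 bases between them, which 0.057% of promoters held. With so rare a motif, its absence from 7 windows is no result about these genes. Sites further from the start were not searched. A match describes the letters only and does not show that a factor binds there. The 150 bases before the start are shown for the 4 genes with a difference between lines at 8 h, E2F1 (chr20:33686386-33686535, minus strand), E2F2 (chr1:23531234-23531383, minus strand), RBL1 (chr20:37095998-37096147, minus strand) and E2F7 (chr12:77065570-77065719, minus strand), each 5′ to 3′ along the gene with E2F motifs in capitals.
E2F1: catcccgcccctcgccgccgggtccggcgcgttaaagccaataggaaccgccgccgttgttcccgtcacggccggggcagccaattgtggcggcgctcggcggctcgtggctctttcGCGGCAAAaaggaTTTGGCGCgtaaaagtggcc
E2F2: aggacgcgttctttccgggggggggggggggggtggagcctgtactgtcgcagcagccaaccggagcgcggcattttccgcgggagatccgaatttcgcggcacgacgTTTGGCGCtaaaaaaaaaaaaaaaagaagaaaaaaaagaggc
RBL1: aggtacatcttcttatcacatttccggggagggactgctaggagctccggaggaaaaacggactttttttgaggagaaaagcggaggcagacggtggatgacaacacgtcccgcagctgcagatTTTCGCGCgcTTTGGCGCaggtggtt
E2F7: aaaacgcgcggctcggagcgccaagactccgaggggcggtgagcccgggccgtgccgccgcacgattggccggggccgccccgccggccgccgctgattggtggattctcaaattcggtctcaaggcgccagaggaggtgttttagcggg
E2F1 carried 2 motifs on opposite strands, with first bases 33 and 20 bases before the start, and RBL1 carried 2 on the same strand, 26 and 16 bases before it. E2F2 carried 1 motif 42 bases before its start and E2F3 carried 1 on the opposite strand 53 bases before its start. The windows of E2F4, E2F7 and RBL2 held none of the 4 spellings.

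Before E2, RB1 showed the largest difference between the lines among the 10 genes. RB1, which lies at chr13:48877880-49173572 (hg19), was 8.58-fold higher in T-47D than in Ishikawa cells, and RBL2 was 2.15-fold higher, whereas RBL1, E2F3 and E2F7 were each higher in Ishikawa cells. The E2F1 libraries of the lines overlapped. An adjusted p (edgeR quasi-likelihood F-test, Benjamini-Hochberg over all genes tested) under 0.05 is called a change here, and by it 9 of the 10 genes differed between the lines at 0 h, 4 higher and 5 lower in T-47D cells, while 81.9% of all 17090 genes tested did (39.5% higher and 42.4% lower).

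RB1 was at 10.5 and 9.61 CPM in the Ishikawa libraries and at 88.6 and 84.4 CPM in the T-47D libraries. The groups were far apart, and the log2 difference (T-47D minus Ishikawa) was 3.10 (SE 0.08, edgeR adjusted p = 2.63e-18). RB1, the retinoblastoma protein, is the main brake on the activator E2Fs. RBL2, the pocket protein known to dominate in resting cells, was at 45.1 and 46.7 CPM in Ishikawa and at 99.5 and 97.6 CPM in T-47D cells, a log2 difference of 1.10 (SE 0.08, edgeR adjusted p = 4.11e-11). RBL1, which is itself an E2F target in cycling cells, went the other way, at 54.9 and 50.8 CPM in Ishikawa and at 29.8 and 25.3 CPM in T-47D cells, a log2 difference of -0.94 (SE 0.08, edgeR adjusted p = 9.42e-10). The replicates of the 2 lines did not overlap for any of the 3 pocket proteins. How many of all genes were separated like this at 0 h was not counted, so this is a description only.

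Among the E2F genes the largest baseline differences were those of E2F7 and E2F3. E2F7 was at 70.2 and 64.3 CPM in Ishikawa and at 26.3 CPM in both T-47D libraries, a log2 difference of -1.36 (SE 0.07), and E2F3 was at 61.2 and 54.6 against 27.6 and 28.1 CPM, a log2 difference of -1.06 (SE 0.07). E2F2 was lower in T-47D cells by a log2 difference of -0.58 (SE 0.09), and E2F5 was higher by 0.46 (SE 0.10). The edgeR adjusted p of these 4 genes lay between 1.39e-13 and 0.000209. E2F4 (log2 difference -0.24, edgeR adjusted p = 0.00633) and E2F8 (0.21, edgeR adjusted p = 0.037) differed less, and E2F8 was near the threshold. The call of E2F4 was lost without Ishikawa 0-h replicate 2 (-0.15, edgeR adjusted p = 0.11) or T-47D 0-h replicate 1 (-0.19, edgeR adjusted p = 0.0654). The call of E2F8 was lost without either of these (0.16 and 0.19, edgeR adjusted p = 0.177 and 0.119), T-47D 0-h replicate 2 (0.22, edgeR adjusted p = 0.0708) or Ishikawa 2-h replicate 2 (0.19, edgeR adjusted p = 0.0587). It was also lost with no filter on low counts (0.21, edgeR adjusted p = 0.0852) and in a fit of the 0-h libraries alone (0.22, edgeR adjusted p = 0.0771). E2F1 was at 58.2 and 61.7 CPM in Ishikawa and at 59.6 and 53.8 CPM in T-47D cells, so that the groups overlapped, with a log2 difference of -0.08 (SE 0.07, edgeR adjusted p = 0.279).

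Per kilobase of exon, which allows levels to be compared between genes, E2F1 and E2F4 were the most abundant of the 10 in both lines at 0 h. In Ishikawa cells E2F1 was at 22.3 ± 0.915 (SD, n = 2) and E2F4 at 21.9 ± 1.81 CPM per kilobase, and their libraries overlapped. E2F3 (11.2) and E2F7 (10.7) followed and also overlapped. RBL1 (8.87), RBL2 (5.66), E2F2 (4.81), E2F8 (3.41), E2F5 (1.75) and RB1 (1.57 CPM per kilobase) came after them without overlap between neighbours. In T-47D cells E2F1 (21.1 ± 1.54, SD, n = 2) and E2F4 (18.6 ± 0.74) were followed by RB1 (13.4) and RBL2 (12.2 CPM per kilobase). E2F3 (5.37), RBL1 (4.62), E2F7 (4.17), E2F8 (3.94), E2F2 (3.22) and E2F5 (2.41 CPM per kilobase) made up the lower group, and no neighbours in this order overlapped. The first place in both lines depended on the gene length used, as did the last place and the order of E2F3 and E2F7 in Ishikawa cells. By longest transcript, E2F7 (11.75) stood above E2F3 (11.5 CPM per kilobase) in Ishikawa cells. With the longest transcript instead of all exons, E2F4 (30.1 in Ishikawa and 25.6 CPM per kilobase in T-47D cells) stood above E2F1 (22.3 and 21.1), and in Ishikawa cells E2F5 (2.08) stood below RB1 (2.11 CPM per kilobase).

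**Figure D1:**
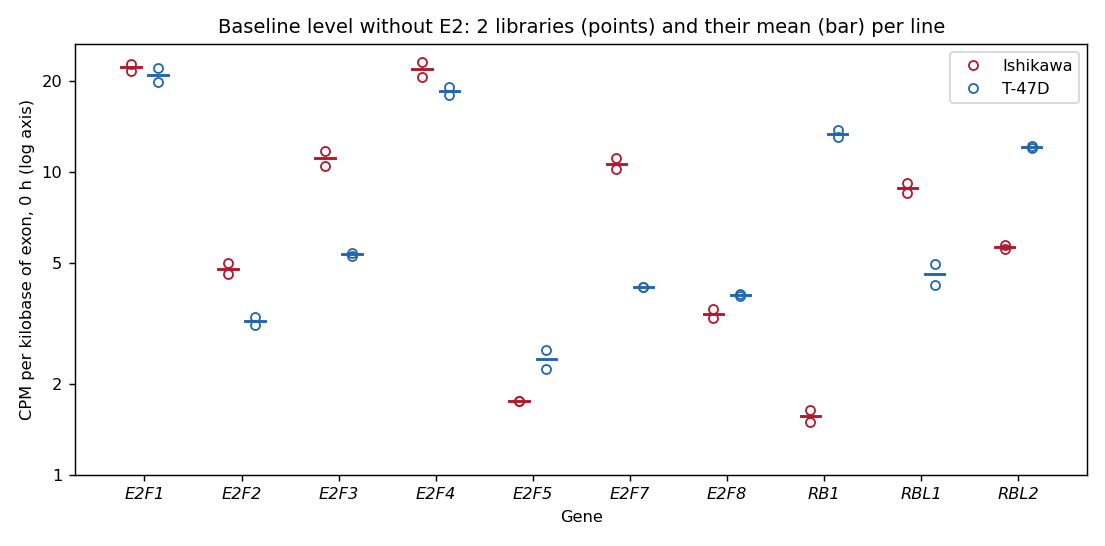
Level of each gene before E2, in CPM per kilobase of exon on a log axis, for Ishikawa (red) and T-47D cells (blue); points are the 2 libraries and bars their mean. RB1 and RBL2 sat higher in T-47D cells, E2F3, E2F7 and RBL1 higher in Ishikawa cells, and E2F1 overlapped between the lines.

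After E2, the 2 lines parted. In T-47D cells 6 of the 10 genes were higher at 8 h than at 0 h (E2F1, E2F2, E2F5, E2F7, RB1 and RBL1) and none was lower by edgeR, by DESeq2 or at an unadjusted p under 0.05, and the rises ranged from 1.17-fold for RB1 to 1.55-fold for E2F1. In Ishikawa cells only E2F5 was higher at 8 h and only E2F1 was lower. The background was 29.7% of 15594 genes called in T-47D cells at 8 h (15.4% up, 14.3% down) and 22.1% of 15787 in Ishikawa cells (12% up, 10.1% down). The median log2 fold change of the 10 genes at 8 h was 0.275 in T-47D and -0.0185 in Ishikawa cells, where the medians over all genes tested were 0.003 and -0.00882. Counted by replicates alone, 8 of the 10 genes had both 8-h libraries above both 0-h libraries in T-47D cells and 2 overlapped. In Ishikawa cells 2 were above, 3 were below and 5 overlapped. The share of all genes separated in this way was not counted, so these counts are a description only. The Ishikawa count of 2 calls at 8 h fell to 0 without 8-h replicate 2 or 0-h replicate 2.

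E2F1, the first of the activator E2Fs to be described and itself an E2F target, gave the largest change. In T-47D cells it was at 59.6 and 53.8 CPM at 0 h, 56.8 and 56.9 after 2 h, 65.4 and 68.6 after 4 h, then 91.9 and 83.8 after 8 h. Both 4-h and both 8-h libraries lay above both 0-h libraries, and the 2-h libraries lay between the 0-h ones. The log2 fold change was 0.23 (SE 0.06, edgeR adjusted p = 0.00854) at 4 h and 0.63 (SE 0.06, edgeR adjusted p = 2.45e-07) at 8 h. In Ishikawa cells E2F1 was at 58.2 and 61.7 CPM at 0 h, 54.6 and 55.5 after 2 h, 54.2 and 55.8 after 4 h, then 53.3 and 47.5 after 8 h. Every treated Ishikawa library was below both untreated ones, and the fall passed the test at 8 h only (log2 fold change -0.25, SE 0.07, edgeR adjusted p = 0.0175). This Ishikawa call was lost without 8-h replicate 2 (-0.19, edgeR adjusted p = 0.167) or without 0-h replicate 2 (-0.20, edgeR adjusted p = 0.126), and the T-47D call at 4 h was lost without 4-h replicate 2 (0.20, edgeR adjusted p = 0.076) or 0-h replicate 2 (0.17, edgeR adjusted p = 0.115). The T-47D call at 8 h was kept in all 8 fits that each left out 1 library, with log2 fold changes between 0.57 and 0.71.

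E2F2, the second activator, rose late in T-47D cells. It was at 17.0 and 18.2 CPM at 0 h, 16.6 and 18.5 after 2 h, 17.4 and 19.3 after 4 h, then 23.8 and 21.5 after 8 h, so that only the 8-h libraries stood clear of the untreated ones. The log2 fold change at 8 h was 0.36 (SE 0.09, edgeR adjusted p = 0.00439). In Ishikawa cells it was at 27.4 and 25.2 CPM at 0 h, 21.3 and 21.1 after 2 h, 22.5 and 22.6 after 4 h, then 22.8 and 23.4 after 8 h. All treated Ishikawa libraries were below the untreated ones. The 2-h fall was the 1 call among the 10 genes at that time (log2 fold change -0.30, SE 0.08, edgeR adjusted p = 0.0486). Of all genes, 4.35% were called then, 2.61% up and 1.74% down. The E2F2 call was lost in each of the 8 fits that left out 1 library, with log2 fold changes between -0.35 and -0.24 and edgeR adjusted p between 0.0522 and 0.39, and with the replicate number as a block (-0.30, edgeR adjusted p = 0.0736).

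E2F3, the third activator, was at 27.6 and 28.1 CPM in T-47D cells at 0 h and at 31.6 and 31.2 at 8 h. The 8-h libraries were both above the 0-h ones, but the log2 fold change of 0.17 (SE 0.07) missed the threshold (edgeR adjusted p = 0.0641). In Ishikawa cells E2F3 was at 61.2 and 54.6 CPM before E2 and at 61.3 and 63.2 CPM after 8 h, without overlap (log2 fold change 0.10, SE 0.07, edgeR adjusted p = 0.317).

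**Figure D2:**
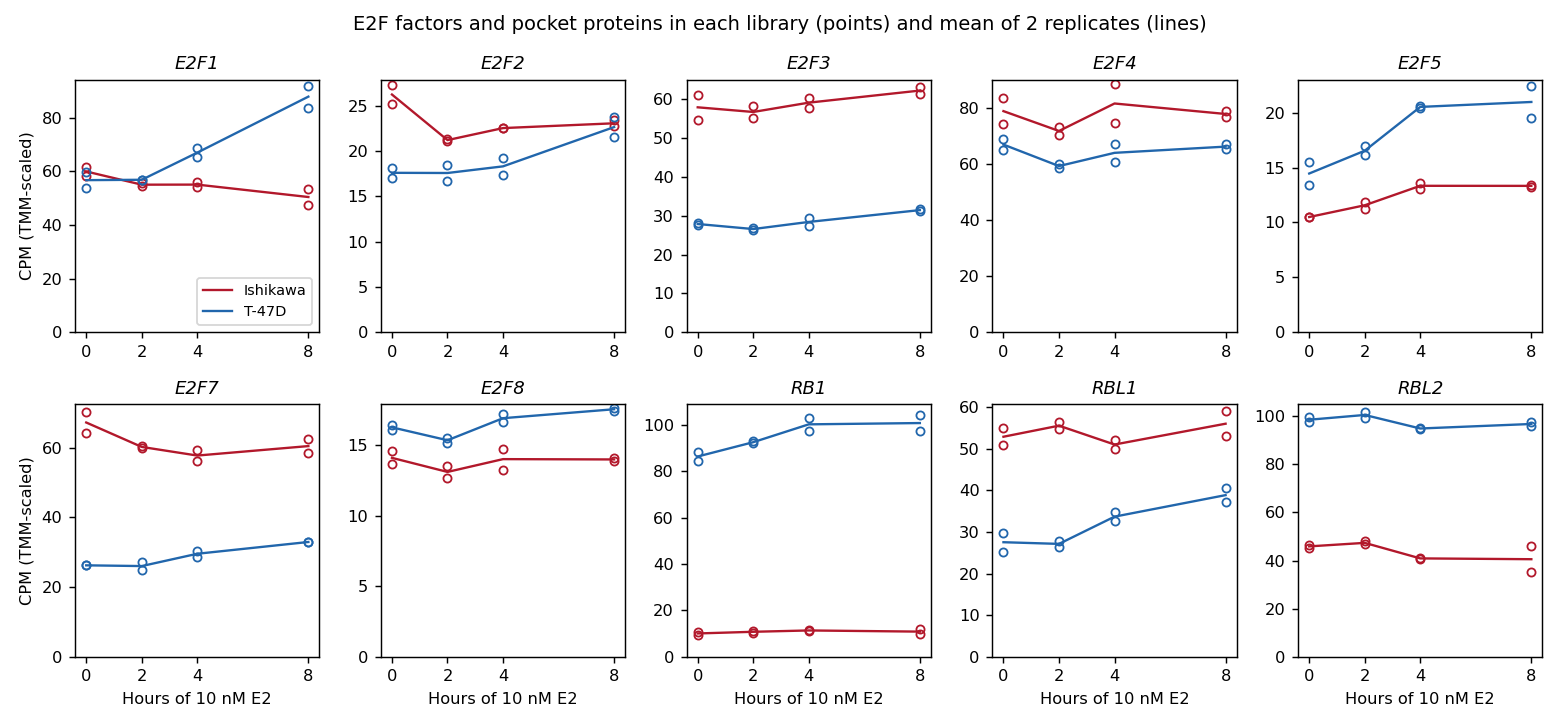
Level of each of the 10 genes in every library (points) and the mean of the 2 replicates (lines), in TMM-scaled CPM against hours of 10 nM E2, for Ishikawa (red) and T-47D cells (blue). E2F1, RBL1, E2F2 and E2F7 climbed in T-47D cells by 8 h, RB1 stayed near 10 CPM in every Ishikawa group, and E2F5 was higher at 4 h and 8 h in both lines.

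Of the repressor E2Fs, E2F5 rose in both lines. In T-47D cells it was at 15.5 and 13.4 CPM at 0 h, 16.1 and 17.0 after 2 h, 20.6 and 20.4 after 4 h, then 19.5 and 22.4 after 8 h. In Ishikawa cells it was at 10.5 CPM in both 0-h libraries, 11.9 and 11.3 after 2 h, 13.1 and 13.6 after 4 h, then 13.4 and 13.2 after 8 h. Every treated library lay above both untreated libraries of its line. The log2 fold changes at 4 h and 8 h were 0.50 and 0.54 (SE 0.09 and 0.09, edgeR adjusted p = 0.000654 and 0.000217) in T-47D and 0.35 and 0.34 (SE 0.10 and 0.10, edgeR adjusted p = 0.0286 and 0.0224) in Ishikawa cells, and their difference between the lines at 8 h was 0.19 (SE 0.13, edgeR adjusted p = 0.445). E2F5 was the 1 gene of the 10 called in Ishikawa cells at 4 h, when 14.3% of all genes were called, 7.66% up and 6.6% down. Its Ishikawa call at 4 h was lost in 6 of the 8 fits that left out 1 library (those without either 0-h, 2-h or 4-h replicate, edgeR adjusted p between 0.0546 and 0.111), and its call at 8 h was lost without 8-h replicate 1, 8-h replicate 2 or 0-h replicate 2 (edgeR adjusted p = 0.0822, 0.0902 and 0.0819), with log2 fold changes between 0.32 and 0.38 over all these fits. The exons of E2F5 overlap those of RBIS, a gene on the opposite strand, over 16.5% of their length, and the strand setting of the counting is not given in the sources used here, so its counts are uncertain. RBIS itself, listed as C8orf59, moved by log2 fold changes of 0.15 and 0.12 at 8 h in Ishikawa and T-47D cells (edgeR adjusted p = 0.294 and 0.171).

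E2F4, the repressor known to be held mainly by RBL1 and RBL2, gave no call after E2. In T-47D cells it was at 65.0 and 68.8 CPM at 0 h, 58.4 and 60.1 after 2 h, 60.7 and 67.2 after 4 h, then 67.1 and 65.3 after 8 h. The 2-h libraries were below all 0-h, 4-h and 8-h libraries, with a log2 fold change at 2 h of -0.18 (SE 0.06, edgeR adjusted p = 0.0546), which passed the threshold with no filter on low counts (-0.17, edgeR adjusted p = 0.0344). In Ishikawa cells E2F4 ranged from 70.3 to 88.5 CPM over the 8 libraries with overlap between 0 h and the 4-h and 8-h groups.

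The atypical repressors differed from each other. E2F7, which is known to be switched on by E2F1 and to limit it in turn, was at 26.3 CPM in both T-47D libraries at 0 h, 24.8 and 27.3 after 2 h, 30.4 and 28.8 after 4 h, then 32.9 and 33.05 after 8 h, so that both 8-h libraries were above all others of the line. The log2 fold change was 0.17 (SE 0.07, edgeR adjusted p = 0.102) at 4 h and 0.33 (SE 0.07, edgeR adjusted p = 0.00157) at 8 h. In Ishikawa cells it was at 70.2 and 64.3 CPM at 0 h and between 56.3 and 62.6 CPM in all 6 treated libraries. These were all below the untreated ones, with log2 fold changes of -0.15, -0.21 and -0.16 at 2, 4 and 8 h (edgeR adjusted p = 0.284, 0.0526 and 0.117). The 4-h value passed under DESeq2 (-0.21, adjusted p = 0.0378) and without Ishikawa 8-h replicate 2 (-0.22, edgeR adjusted p = 0.0434). E2F8 stayed between 12.7 and 14.8 CPM in Ishikawa and between 15.2 and 17.7 CPM in T-47D cells at all times, with no call and an 8-h log2 fold change in T-47D cells of 0.11 (SE 0.08, edgeR adjusted p = 0.34).

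Among the pocket proteins, RBL1 rose most. In T-47D cells it was at 29.8 and 25.3 CPM at 0 h, 27.8 and 26.5 after 2 h, 34.8 and 32.5 after 4 h, then 37.1 and 40.5 after 8 h. The 2-h libraries lay between the untreated ones, and the 4-h and 8-h libraries lay above both. The log2 fold change was 0.29 (SE 0.08, edgeR adjusted p = 0.0146) at 4 h and 0.50 (SE 0.08, edgeR adjusted p = 0.000101) at 8 h. The 4-h call was lost without 4-h replicate 1 (0.24, edgeR adjusted p = 0.125) or 0-h replicate 2 (0.18, edgeR adjusted p = 0.181). In Ishikawa cells RBL1 stayed between 49.9 and 58.9 CPM, its groups overlapped the untreated one at every time, and the 8-h log2 fold change was 0.08 (SE 0.07, edgeR adjusted p = 0.446).

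RB1 moved less and from a high level in T-47D cells, where it was at 88.6 and 84.4 CPM at 0 h, 92.1 and 93.2 after 2 h, 103 and 97.6 after 4 h, then 97.6 and 104 after 8 h. All treated libraries lay above the untreated ones. The log2 fold change was 0.21 (SE 0.05, edgeR adjusted p = 0.00648) at 4 h and 0.22 (SE 0.05, edgeR adjusted p = 0.00286) at 8 h, and the 4-h call was lost without 4-h replicate 1 (0.18, edgeR adjusted p = 0.0924) or 0-h replicate 2 (0.18, edgeR adjusted p = 0.0531). In Ishikawa cells RB1 stayed between 9.61 and 11.8 CPM, with an 8-h log2 fold change of 0.11 (SE 0.12, edgeR adjusted p = 0.544), and the difference between the lines was 0.11 (SE 0.11, edgeR adjusted p = 0.646). RBL2 stayed between 94.8 and 102 CPM in T-47D cells with no call. In Ishikawa cells its 8-h libraries were at 45.9 and 35.2 CPM against 45.1 and 46.7 CPM at 0 h (log2 fold change -0.18, SE 0.09, edgeR adjusted p = 0.188), and without 8-h replicate 1 the fall passed the test (-0.37, edgeR adjusted p = 0.00945). AKTIP, on the opposite strand, overlaps 7.51% of the exon length of RBL2. The log2 fold change of AKTIP at 8 h was -0.01 in Ishikawa and -0.11 in T-47D cells (edgeR adjusted p = 0.97 and 0.219). Another opposite-strand entry, without a gene name, overlaps 8.89% of the exon length of RBL2. An opposite-strand long noncoding RNA overlaps 3.58% of that of RBL1. The strand setting is not given, so these counts are uncertain too.

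**Figure D3:**
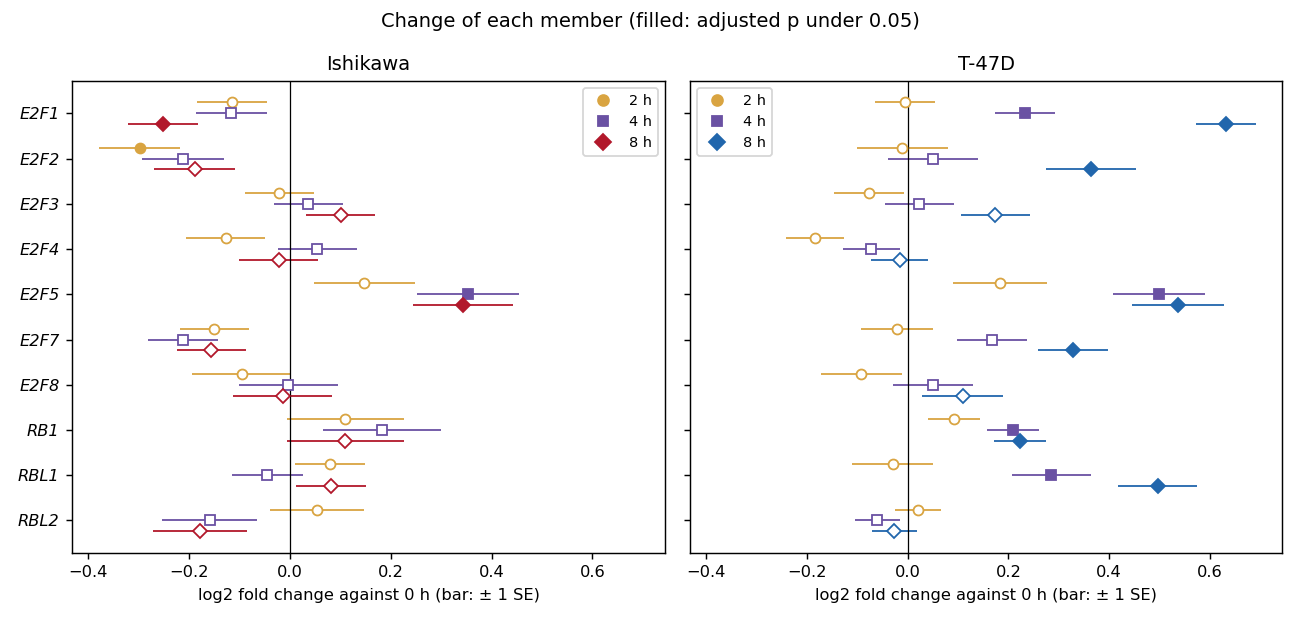
Log2 fold change against 0 h of each gene at 2 h (circles), 4 h (squares) and 8 h (diamonds) in each line, with bars of 1 SE and filled symbols for an adjusted p under 0.05. In T-47D cells no symbol is filled at 2 h, 4 are at 4 h and 6 are at 8 h; in Ishikawa cells 1, 1 and 2 are filled.

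In T-47D cells the calls were made at 4 h and 8 h. At 2 h none of the 10 genes was called by edgeR or by DESeq2 and 1, E2F4, had an unadjusted edgeR p under 0.05, while 9.3% of all genes were called (4.9% up, 4.4% down). At 4 h 4 genes were called, all up (E2F1, E2F5, RB1 and RBL1), against 21.5% of all genes, 11.1% up and 10.4% down. Between 2 h and 8 h 6 genes rose (E2F1, E2F2, E2F3, E2F5, E2F7 and RBL1), against 16.8% of all genes, 9.53% up and 7.23% down. E2F1 and RBL1 gained most in that interval, by log2 values of 0.64 (SE 0.06, edgeR adjusted p = 8.49e-07) and 0.53 (SE 0.08, edgeR adjusted p = 0.000146). This count fell to 2, these same genes, without T-47D 2-h replicate 1. The count at 4 h fell to 2 without 4-h replicate 1 and to 1 without 0-h replicate 2, whereas that at 8 h stayed at 6 in all 8 fits. In Ishikawa cells none of the 10 genes was called between 2 h and 8 h by edgeR or DESeq2, and 1, RBL2, had an unadjusted edgeR p under 0.05, while 2.24% of all genes were called (1.06% up, 1.17% down). Without Ishikawa 8-h replicate 1 the RBL2 difference was called.

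The question whether the lines responded differently was tested directly, as the T-47D change minus the Ishikawa change in 1 fit of all 16 libraries. At 8 h the difference passed the test for 4 of the 10 genes, all with the higher value in T-47D cells, against 10% of 17090 genes (5.32% in that direction and 4.7% in the other). E2F1 differed by 0.88 on the log2 scale (SE 0.09, edgeR adjusted p = 1.86e-06), E2F2 by 0.55 (SE 0.12, edgeR adjusted p = 0.00493), E2F7 by 0.48 (SE 0.09, edgeR adjusted p = 0.00181) and RBL1 by 0.41 (SE 0.11, edgeR adjusted p = 0.0213). E2F1 is the gene that moved in opposite directions, up in T-47D and down in Ishikawa cells, with both changes past the test. The differences of E2F1, E2F2 and E2F7 were called in all 16 fits that left out 1 library, but that of E2F2 was lost with 4 h and 8 h as 1 group (0.42, edgeR adjusted p = 0.0508). That of RBL1 was lost in the fit restricted to the compared times (0.38, edgeR adjusted p = 0.0926). It was lost without Ishikawa 8-h replicate 2 (0.31, edgeR adjusted p = 0.124), Ishikawa 0-h replicate 1 (0.33, edgeR adjusted p = 0.0753), T-47D 8-h replicate 2 (0.35, edgeR adjusted p = 0.0926) or T-47D 0-h replicate 2 (0.30, edgeR adjusted p = 0.129). The other 6 genes differed by between 0.00 and 0.19 and were not called.

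At 4 h the difference passed the test for E2F7 (0.39, SE 0.09, edgeR adjusted p = 0.0144) and E2F1 (0.36, SE 0.09, edgeR adjusted p = 0.0255), against 6.03% of all genes, 3.21% higher and 2.83% lower in T-47D cells. E2F1 lost this call in 6 of the 16 fits that left out 1 library (without Ishikawa 4-h replicate 1, 2-h replicate 1 or 0-h replicate 2, or T-47D 4-h replicate 1, 4-h replicate 2 or 0-h replicate 2, edgeR adjusted p between 0.0524 and 0.138) and E2F7 in 4 (without Ishikawa 4-h or 0-h replicate 1, or T-47D 4-h or 0-h replicate 1, edgeR adjusted p between 0.0508 and 0.114), with differences between 0.29 and 0.39. RBL1 (0.34, edgeR adjusted p = 0.0821) passed without T-47D 0-h replicate 1 (0.46, edgeR adjusted p = 0.0261). At 2 h no difference was called by edgeR or DESeq2, and 1, that of E2F2, had an unadjusted edgeR p under 0.05, while 2.67% of all genes were called (1.4% higher, 1.28% lower in T-47D cells).

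Targets, partners and regulators of these factors were counted from lists chosen with earlier results of these data known. The counts and the shares of all genes beside them are therefore a description. Of 23 genes that E2F factors are known to drive at G1/S, 19 rose and none fell in T-47D cells at 8 h. Of all genes, 15.4% rose and 14.3% fell. Most of the 23 act in DNA replication and nucleotide supply, and the median log2 fold change of the 23 was 0.413. No fall among them was found by DESeq2 or at an unadjusted p under 0.05. CDC25A, a phosphatase that activates CDK2, rose by 0.82 (SE 0.08), CDC6, which loads the replicative helicase, by 0.70 (SE 0.06), and the helicase subunits MCM6 and MCM2 by 0.63 and 0.61 (SE 0.05 and 0.05), with edgeR adjusted p between 1.71e-08 and 2.46e-07. The sum of the 23 genes went from between 2136 and 2254 CPM at 0 h to between 2205 and 2221 after 2 h, 2393 and 2436 after 4 h, then 2827 and 2897 after 8 h. In Ishikawa cells at 8 h none rose by edgeR (1 by DESeq2, 3 at an unadjusted p under 0.05) and 3 fell (4 by DESeq2, 5 at an unadjusted p under 0.05), against 12% of all genes up and 10.1% down. Those that fell were POLD1, MCM5 and TYMS, which act in DNA synthesis (log2 fold changes -0.24, -0.22 and -0.22, edgeR adjusted p = 0.00991, 0.00879 and 0.0379). The sum there stayed between 3185 and 3354 CPM in all 8 libraries. The count of 3 fell to 1 without either 8-h replicate and to 0 without 0-h replicate 2.

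The change at 8 h differed between the lines for 18 of these 23 targets, each with the higher value in T-47D cells, against 5.32% of all genes in that direction, and for 15 to 18 in the fits that left out 1 library. Earlier, 12 of the 23 had risen in T-47D cells at 4 h (11.1% of all genes had), a count that fell to 5 and 7 without 4-h replicates 1 and 2 and to 6 without 0-h replicate 2. At 2 h 1 had risen (4.9% of all genes had), with 0 without either 2-h replicate and 3 without 0-h replicate 1. Of 14 genes of G2 and mitosis, which the pocket proteins repress within the DREAM complex and FOXM1 activates, 3 had risen in T-47D cells at 8 h, BUB1, CDC20 and AURKA (log2 fold changes 0.23, 0.18 and 0.14, edgeR adjusted p = 0.00946, 0.008 and 0.0308). This was a count near the 15.4% of all genes that rose. It was 8 without 8-h replicate 1, 5 without 0-h replicate 1, and 1 without 0-h replicate 2. It became 2 without 8-h replicate 2 or without 2-h replicate 2. The median of the 14 was 0.0975. In Ishikawa cells CDK1 rose (0.23, edgeR adjusted p = 0.0385) and AURKB fell (-0.28, edgeR adjusted p = 0.0307). With 1 of 14 in each direction, this was no more than the 12% of all genes that rose and the 10.1% that fell. Both calls were absent without 8-h replicate 1 or 0-h replicate 2.

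The partners and upstream regulators were counted in the same way. TFDP1, the DNA-binding partner of E2F1 to E2F5, rose in T-47D cells (log2 fold change at 8 h 0.36, SE 0.05, edgeR adjusted p = 9.98e-06) and differed between the lines by 0.25 (SE 0.07, edgeR adjusted p = 0.0197), a difference lost in 7 of 16 fits that left out 1 library. E2F6, a repressor that acts without pocket proteins, rose in both lines (0.52 in T-47D and 0.34 in Ishikawa cells, edgeR adjusted p = 0.000516 and 0.0115), and TFDP2, the second partner, fell in both (-0.22 and -0.23, edgeR adjusted p = 0.00191 and 0.0118). In Ishikawa cells the call of E2F6 was absent without 8-h replicate 2 or 0-h replicate 1, and that of TFDP2 without 8-h replicate 1. Of the MuvB core genes and MYBL2, 2 of 6 rose in T-47D cells, LIN9 and LIN52 (0.39 and 0.21, edgeR adjusted p = 0.00336 and 0.0308), where 15.4% of all genes rose and 29.7% were called in either direction. In Ishikawa cells none of the 6 was called by edgeR or DESeq2 or had an unadjusted p under 0.05. The T-47D count was 1 without 8-h replicate 2 or either 0-h replicate, and the Ishikawa count was 1 without 0-h replicate 1.

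Of the cyclins and kinases that act on pocket proteins, 4 of 7 tested rose in T-47D cells at 8 h: CCNE2 (0.48), CCND1 (0.43), CDK2 (0.22) and CCND3 (0.21, edgeR adjusted p between 3.12e-06 and 0.0131), against 15.4% of all genes. This count was lower in some fits that left out 1 T-47D library. In Ishikawa cells 3 of 8 rose, CCND2 (0.84), CCND1 (0.39) and CDK6 (0.32, edgeR adjusted p between 1.81e-06 and 0.0188), against 12% of all genes. The Ishikawa count was 2 without 8-h replicate 1, 8-h replicate 2 or 0-h replicate 2. CCND2 was at 25.9 CPM in Ishikawa cells at 0 h and at 46.5 CPM at 8 h, and at 0.0247 CPM in T-47D cells at 0 h. The 8-h change of CDK2 differed between the lines by 0.31 (SE 0.07, edgeR adjusted p = 0.00897), and this was lost without Ishikawa 8-h replicate 2.

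Of 7 CDK inhibitors, which keep the pocket proteins active, 4 fell and none rose in T-47D cells at 8 h, with no rise by DESeq2 or at an unadjusted p under 0.05, against 14.3% of all genes down. The count of falls was lower in some fits that left out 1 T-47D library and higher in others. CDKN2B was between 100.8 and 112.1 CPM at 0 h and between 63.6 and 66.8 CPM at 8 h, a log2 fold change of -0.71 (SE 0.06, edgeR adjusted p = 2.89e-08). CDKN1A and CDKN2A changed by -0.36 and -0.32 (SE 0.06 and 0.06, edgeR adjusted p = 0.00011 and 0.000355). CDKN1C changed by -1.36 (SE 0.38, edgeR adjusted p = 0.0115) from a level below 1 CPM. In Ishikawa cells 1 of 7 fell, CDKN1C (-0.59, SE 0.15, edgeR adjusted p = 0.0131), a count near the 10.1% of all genes that fell. That call was absent without 8-h replicate 2 or 0-h replicate 2, while 2 genes were called without 8-h replicate 1. The change at 8 h differed between the lines for CDKN2B (-0.48, SE 0.10, edgeR adjusted p = 0.00316) and CDKN2A (-0.26, SE 0.07, edgeR adjusted p = 0.0274), and 1 of these 2 calls was absent without T-47D 8-h replicate 2 or either T-47D 0-h replicate.

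**Figure D4:**
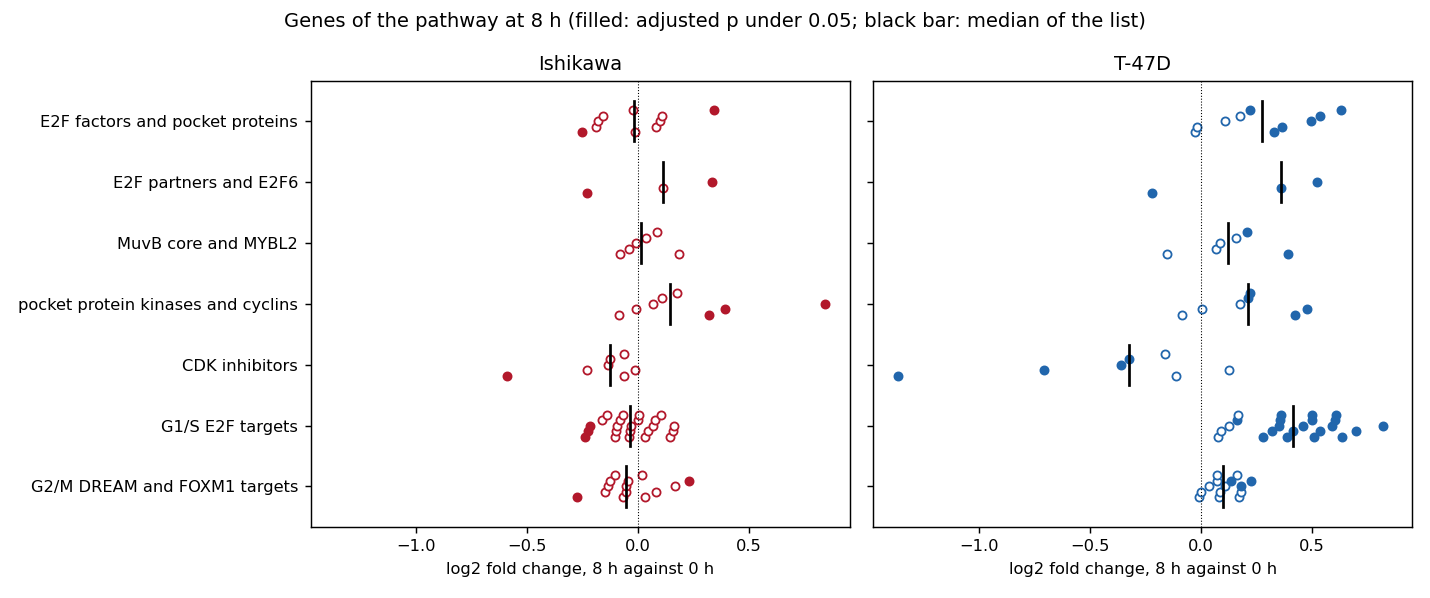
Log2 fold change at 8 h against 0 h of the 10 genes and of the partner, regulator and target lists in each line; each point is a gene, filled for an adjusted p under 0.05, and the black bar is the median of the list. The G1/S targets lie to the right of 0 in T-47D cells, with 19 of 23 filled, and around 0 in Ishikawa cells, with 3 of 23 filled.

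Likeness over the 8 T-47D libraries was described for the 3 genes with the smallest adjusted p at 8 h, by Pearson's r of log2 CPM among 13028 genes with a mean of at least 50 counts. The 8 points share a time course of 4 groups, so these values are a description. The genes most like E2F1 were PYCR1 (r = 0.994), a proline biosynthesis enzyme, the helicase subunit MCM2 (0.993) and LRP8 (0.993). Those most like RBL1 were GMPS (0.989), an enzyme of guanine nucleotide synthesis, VAV3 (0.988) and POLE2 (0.985), a subunit of a replicative DNA polymerase. Those most like E2F5 were PRTG (0.989), C9orf41 (0.989) and UTP6 (0.988).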

How the data were processed

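Bulk RNA-seq counts of 16 libraries were analysed. The authors deposited raw read counts per gene, 1 table per line, made by HISAT2 alignment to hg19, SAMtools and featureCounts on UCSC Known Genes. Versions, strand setting and read-pair handling are not given in the sources used here. Among counts from 1 to 10, between 71.19% and 74.63% were even in each library. Whether both reads of a pair were counted was not tested. The labels do not say whether replicates were separate cultures, so p-values measure the spread between these libraries, which may be technical. Counts were tested in R 4.3.3 with edgeR 4.0.16 (filterByExpr, TMM, quasi-likelihood F-test, Benjamini-Hochberg over all genes tested, adjusted p under 0.05), within each line over its 4 time points, replicate numbers left out, and over all 16 libraries as 8 groups for differences between lines. SE was taken as |log2 fold change| over root F. The script was tested on simulated data. Alternatives were DESeq2 1.42.0, RLE scaling, other count filters, the replicate number as a block, fits of only the time points compared, 4 h and 8 h as 1 group, and leaving out each library. Replicates varied by 6.45% in Ishikawa and 5.02% in T-47D cells (biological coefficient of variation). Gene lengths and overlaps came from GENCODE on hg19. All 10 genes are named, other lists by counts and by at most 4 called genes with the largest change at 8 h, and a few further genes were named after their values were seen. The 10 genes and the lists were chosen with earlier results of these data known.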

Additional observations from a re-analysis of the deposited data

Results flagged for a closer look

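The response to E2 differed between T-47D and Ishikawa cells, by an interaction test over 16 libraries, for E2F1 at 4 h (0.36, T-47D change minus Ishikawa change on the log2 scale) and at 8 h (0.88), for E2F7 at 4 h (0.39) and 8 h (0.48), for E2F2 at 8 h (0.55) and for RBL1 at 8 h (0.41). The same test was passed at 8 h by 18 of 23 G1/S targets, each with the higher value in T-47D cells. Of all genes tested, 10% passed it at 8 h, 5.32% in that direction, and 6.03% at 4 h. In fits restricted to the compared times, E2F1 and E2F7 at 4 h and RBL1 at 8 h missed the threshold (edgeR adjusted p = 0.0647, 0.058 and 0.0926). With 4 h and 8 h as 1 group, so did E2F2 (0.42, edgeR adjusted p = 0.0508). No test for a library apart from the rest was made, because every group held 2 libraries.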

How the results depend on the processing

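Over 592 values of single genes under the alternatives other than leaving out a library, 563 kept their direction and side of the threshold, 14 lost a call, 8 gained one and 7 changed sign without being called. Of 880 values with 1 library left out, 793, 53, 3 and 31 did so. No sign change concerned a called value, and the cause of the changes was not tested.

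With the replicate number as a block, the count of the 10 genes called in Ishikawa cells at 2 h went from 1 to 0, since E2F2 missed the threshold (-0.30, edgeR adjusted p = 0.0736), and the block changed no other call of the 10 genes. The numbers gave no sign of pairing: correlations of the deviations of same-numbered libraries lay between -0.215 and 0.0606 in Ishikawa and between -0.0705 and 0.115 in T-47D cells.

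In fits restricted to the libraries of the compared times, the counts in Ishikawa cells were 0 at 2 h, 0 at 4 h and 0 at 8 h, that in T-47D cells at 2 h was 1 (E2F4), and that of differences between lines at 4 h was 0. Such fits have fewer libraries to estimate the spread, and the part of this in the changed counts was not tested. Ishikawa cells at 4 h gave 2 genes (E2F5 and E2F7) under DESeq2, with no filter or with at least 10 counts in every library, T-47D cells at 2 h gave 1 with no filter, and Ishikawa cells at 8 h gave 4 (E2F1, E2F2, E2F5 and E2F7) with 4 h and 8 h as 1 group. That grouping also ended the T-47D call of E2F2 at 8 h (0.21, edgeR adjusted p = 0.165). Leaving out 1 library gave counts of 0 to 0 at 2 h, 0 to 2 at 4 h, 0 to 2 at 8 h and 0 to 1 from 2 h to 8 h in Ishikawa cells, 1 to 4 at 4 h and 2 to 6 from 2 h to 8 h in T-47D cells, and 0 to 2 for differences at 4 h.

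Sign changes of uncalled log2 values were as follows. E2F4 in Ishikawa cells at 8 h was 0.016 with 4 h and 8 h as 1 group. In T-47D cells at 2 h, E2F1 was 0.0059, 0.0064 and 0.0058 and E2F2 was 0.00025, 0.00074 and 0.00033 with no filter, at least 10 counts and the restricted fit. With 1 library left out, Ishikawa values ranged at 2 h from -0.094 to 0.060 (E2F3), at 4 h from -0.037 to 0.12 (E2F3), -0.070 to 0.17 (E2F4), -0.078 to 0.064 (E2F8) and -0.093 to 0.0085 (RBL1), and at 8 h from -0.11 to 0.071 (E2F4), -0.056 to 0.031 (E2F8) and -0.020 to 0.22 (RB1). T-47D values ranged at 2 h from -0.065 to 0.081 (E2F1), -0.082 to 0.074 (E2F2), -0.083 to 0.055 (E2F7) and -0.13 to 0.10 (RBL1), at 4 h from -0.020 to 0.13 (E2F2), -0.030 to 0.083 (E2F3) and -0.14 to 0.0084 (E2F4), and at 8 h from -0.053 to 0.032 (E2F4). The difference between lines at 2 h ranged from -0.20 to 0.032 (RBL1).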
